A study of Mus musculus with 8 samples.

Results

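Calcium handling in the cardiomyocyte was followed through 10 genes: Ryr2, Casq2, Trdn, Jph2, Atp2a2, Pln, Sln, Cacna1c, Cacna2d1 and Slc8a1. Each was taken as the assembled short-read locus on its own strand whose span overlapped the GENCODE M21 gene (mm10) best, with at least 0.5 of the joint span shared. All 10 were found in this way among 65265 entries of the short-read table, of which 20637 were assembled loci and 11137 of these matched a protein-coding gene. Genes of the other lists without such a locus were taken as the sum of their RefSeq accession entries. For the 10 genes the shared part of the joint span lay between 0.819 for Sln and 0.997 for Cacna2d1.

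The data came from HL1, mouse heart muscle cells in culture whose parent is the atrial tumour lineage AT-1, grown in supplemented Claycomb medium with 0.1 mM norepinephrine. Nuclei were separated into chromatin and nucleoplasm, and 3 short-read libraries were made per fraction, from 3 independent cultures, each from 100 ng of RNA depleted of ribosomal RNA and read as 50 bp single-end stranded reads. Chromatin RNA was also sequenced as 2 long-read cDNA libraries, after a poly(A) tail had been added. The fraction field of the labels reads chromatin for the nucleoplasm samples too, while their titles name nucleoplasm, and they were grouped by title.

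In a heart muscle cell, calcium that enters through L-type channels of the surface membrane opens ryanodine receptors of the sarcoplasmic reticulum, and the released calcium triggers contraction. Relaxation follows when the calcium is pumped back into the reticulum by SERCA and carried out of the cell by the sodium-calcium exchanger. Sarcolipin, a small regulator of SERCA, is typical of the atrium.

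The deposited short-read values are read counts per locus divided by a size factor for each library, here called normalized counts. They totalled 102249023, 97883216 and 95390517 in chromatin replicates 1, 2 and 3, and 103074905, 115880635 and 88255992 in nucleoplasm replicates 1, 2 and 3. The 10 genes together took 0.815%, 0.821% and 0.596% of the chromatin libraries and 0.403%, 0.342% and 0.307% of the nucleoplasm libraries. Their share was thus higher in every chromatin library than in any nucleoplasm library. In bulk RNA such as this, fewer cells that express a gene and less RNA per cell cannot be told apart. As controls of the fractionation, the nuclear long noncoding RNAs Malat1 and Pvt1 had log2 fold changes of 3.82 and 3.93, chromatin over nucleoplasm. The messages of Gapdh, a glycolytic enzyme, and B2m, the light chain of MHC class I, had -2.07 and -2.67. All 4 kept their sign when the libraries were scaled to ERCC standards, at 4.55, 4.67, -1.34 and -1.94, and with quantile normalization.

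The line was checked against markers of its labelled cell type and of others. Of 10 cardiomyocyte markers, 8 had an assembled locus by the matching rule, all above 0, and the loci overlapping Myh6 and Tnnt2 missed the rule, with shares of 0.449 and 0.472. They summed to 2502634, 2363999 and 1206595 normalized counts in chromatin replicates 1, 2 and 3 and to 450454, 435272 and 277550 in the nucleoplasm replicates, with Ttn, which codes for titin, the most abundant at a mean of 1080198. All 7 fibroblast markers, 3 of them as sums of accession entries, had a mean above 0, led by the collagen gene Col1a1 at 183593. Lum was above 0 only in nucleoplasm replicate 1, at 2.02, and Postn was at 0 in every chromatin library. They summed to 120670, 135634 and 174007 in chromatin and to 259211, 253853 and 461194 in nucleoplasm. Of 5 smooth muscle markers, 4 had an entry, led by Acta2 at 125065, and they summed to 103644, 110621 and 63256 in chromatin and to 248119, 251962 and 171374 in nucleoplasm. Other lists were lower: endothelial markers were led by Kdr at a mean of 1722 with Cdh5 at 0, skeletal muscle markers by Acta1 at 1075 with Myod1 at 0, and immune markers by Cd68 at 67.1 with Adgre1 at 0. In both fractions replicate 3 was the lowest library for 7 of the 8 cardiomyocyte markers, while for Gata4, a cardiac transcription factor, it was the highest. Most of the cardiomyocyte sum was Ttn, and without it the sum was 143428, 145416 and 112459 in chromatin and 132297, 143918 and 77800 in nucleoplasm. Replicate 3 was the highest library for 5 of the 7 fibroblast markers in chromatin and for 6 in nucleoplasm. Most of the fibroblast sum was Col1a1. Without it the sum was 19668, 22779 and 58090 in chromatin and 43302, 42706 and 116468 in nucleoplasm, most of it the collagen gene Col3a1.

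The release channel gene Ryr2, the entry channel gene Cacna1c and the exchanger gene Slc8a1 were higher in chromatin by 7.09, 5.69 and 4.85 times, as ratios of means over 3 libraries each, and Cacna2d1 by 1.92 times. The SERCA regulators Pln and Sln and the anchor protein gene Trdn were lower in chromatin under the authors' scaling, while Pln and Trdn changed sign with ERCC scaling. The fractions were compared with limma over the 35794 entries above 0 in at least 1 library, as log2(normalized count + 1), with Benjamini-Hochberg adjustment over all of them. Of the 10 genes, 4 were higher in chromatin at an adjusted p under 0.05, Ryr2, Cacna1c, Slc8a1 and Cacna2d1, and 3 were lower, Pln, Sln and Trdn (5 with the replicate number as a block), while Atp2a2, Casq2 and Jph2 did not pass. Over all entries 26.9% were higher and 20.9% lower, and over the 10957 protein-coding loci tested 25.5% were higher and 43.4% lower. With the replicate block 29.2% of the protein-coding loci were higher and 49.7% lower. More than 4-fold higher were 3 of the 10, namely Ryr2, Cacna1c and Slc8a1, against 5.3% of the protein-coding loci. The median log2 fold change was -0.03 over the 10 genes, -0.32 over the protein-coding loci and 0.38 over all entries.

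The count of lower genes depended on the scaling and on single libraries. When every library was set to the same total of ERCC standards, of which the same volume had been added to each nuclear fraction, the median rose by 0.46 over all entries and by 0.72 over the protein-coding loci. Quantile normalization moved the median of all entries by -0.37 and that of the protein-coding loci by -0.01. Of all calls, 56.3% were higher in chromatin with the authors' size factors, 80.0% with ERCC scaling and 46.9% with quantile normalization. On the ERCC scale limma called 5 of the 10 genes higher and 0 lower, with 1 lower at an unadjusted p under 0.05. Of the protein-coding loci 38.4% were higher and 14.9% lower on that scale. Without chromatin replicate 1, 2 or 3, or nucleoplasm replicate 1 or 2, limma called 0 of the 10 lower, and the counts at an unadjusted p under 0.05 were 3, 3, 2, 0 and 1. In the same fits 38.8%, 40.7%, 43.3%, 38.4% and 38.5% of the protein-coding loci were lower at an adjusted p under 0.05. Relative to the median protein-coding locus of the same scaling, Ryr2 stood at 3.15 with the authors' size factors, 3.17 with ERCC scaling and 2.85 with quantile normalization, and Pln at -0.31, -0.30 and -0.79.

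**Figure D1:**
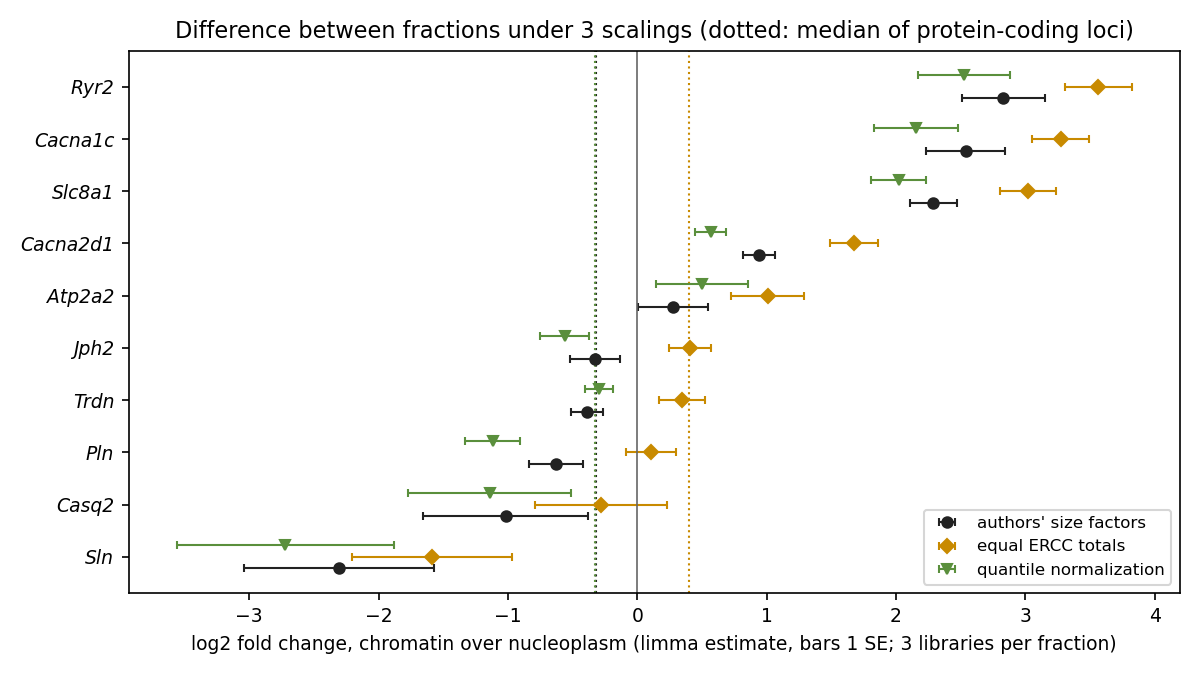
Log2 fold change of each gene, chromatin over nucleoplasm, with 1 SE from limma (3 libraries per fraction), under the authors' size factors, equal ERCC totals and quantile normalization; dotted lines mark the median of protein-coding loci in each scaling (-0.32, 0.40 and -0.33). Ryr2, Cacna1c, Slc8a1, Cacna2d1 and Atp2a2 lie above 0 in all 3 scalings, Sln and Casq2 lie below 0 in all 3, and Jph2, Trdn and Pln lie below 0 except under ERCC scaling.

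Ryr2 codes for the cardiac ryanodine receptor, the channel through which the sarcoplasmic reticulum releases calcium. The gene lies on the minus strand of chr13:11553102-12106945, a span of 554 kb of which 5.20% is annotated exon. It had 177668, 169195 and 101687 normalized counts in chromatin replicates 1, 2 and 3 and 25856, 23401 and 14020 in nucleoplasm replicates 1, 2 and 3. Every chromatin library was above every nucleoplasm library, and replicate 3 was the lowest in both fractions. The log2 fold change was 2.83 ± 0.32 (SE, n = 3 per fraction, limma adjusted p = 0.000654), larger than that of 98.0% of the protein-coding loci.

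Casq2 codes for cardiac calsequestrin, which binds calcium inside the reticulum, and lies on the plus strand of chr3:102086415-102146514. Chromatin libraries held 6345, 7197 and 2245 normalized counts and nucleoplasm libraries 14109, 13971 and 4322. The fractions overlapped because nucleoplasm replicate 3 was below chromatin replicates 1 and 2, yet within each same-numbered pair the nucleoplasm library was higher. The log2 fold change was -1.02 ± 0.64 (SE, adjusted p = 0.252). With the replicate number as a block the adjusted p was 0.000671, and without replicate 3 of both fractions it was 0.00200 at a log2 fold change of -1.05, over a range of 0.000671 to 0.666 in all alternatives.

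Trdn codes for triadin, an anchor between calsequestrin and the ryanodine receptor. It spans 396 kb on the plus strand of chr10:33080554-33476709, with 2.36% of the span annotated as exon. It had 3230, 3085 and 2630 normalized counts in chromatin and 4376, 3751 and 3580 in nucleoplasm. The fractions did not overlap, and the ratio of nucleoplasm to chromatin means was 1.31. The log2 fold change was -0.39 ± 0.12 (SE, adjusted p = 0.0400) and turned to 0.35 (adjusted p = 0.164) with ERCC scaling. Quantile normalization gave -0.29 with an adjusted p of 0.0764. The call was also lost without chromatin replicate 1, 2 or 3, with adjusted p of 0.0546, 0.0779 and 0.0793, and without nucleoplasm replicate 1 or 2, with 0.124 and 0.0853. With the replicate block it was 0.00767.

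Jph2 codes for junctophilin 2, which holds the reticulum close to the surface membrane where release takes place, and covers 61.8 kb of the minus strand at chr2:163336242-163397993. Its locus had 7429, 8146 and 5657 normalized counts in chromatin and 9595, 9939 and 7077 in nucleoplasm. Nucleoplasm replicate 3 was below chromatin replicates 1 and 2, so the fractions overlapped, although each pair of the same number was higher in nucleoplasm. The log2 fold change of -0.33 ± 0.19 (SE, adjusted p = 0.225) turned to 0.41 (adjusted p = 0.0902) with ERCC scaling. With the replicate block the adjusted p was 0.00787, and without replicate 3 of both fractions 0.0240. When the other same-strand locus inside the gene was added, the value turned to 0.83 (adjusted p = 0.00275), the adjusted p ranging from 0.00275 to 0.470 over all alternatives.

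Atp2a2 codes for SERCA2, the pump that returns calcium to the reticulum, and spans 48.7 kb of the minus strand at chr5:122453513-122502225. Chromatin replicates 1, 2 and 3 had 279493, 279979 and 181553 normalized counts and nucleoplasm replicates 233548, 225126 and 152165. In each fraction replicates 1 and 2 were close to each other, and replicate 3 was lower by more than the gap between the fractions. Chromatin over nucleoplasm, the log2 value was 0.28 ± 0.27 (SE, adjusted p = 0.441). It was 1.01 (adjusted p = 0.0265) with ERCC scaling, where Atp2a2 passed as higher in chromatin.

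Pln codes for phospholamban, a small membrane protein that inhibits SERCA2 until it is phosphorylated. It is a compact gene of 8.32 kb on the plus strand of chr10:53337667-53345987, with 33.2% of its span in exons, and the gene Cep85l runs across it on the opposite strand. It had 32726, 33476 and 23199 normalized counts in chromatin and 51305, 50138 and 36650 in nucleoplasm. All nucleoplasm libraries lay above all chromatin libraries, and the ratio of nucleoplasm to chromatin means was 1.54. Its log2 fold change was -0.63 ± 0.21 (SE, adjusted p = 0.0481), but 0.10 (adjusted p = 0.679) with ERCC scaling. A pseudocount of 0.1 gave an adjusted p of 0.0505 and a pseudocount of 10 gave 0.0528. Leaving out chromatin replicate 1, 2 or 3 gave 0.0835, 0.0667 and 0.0992, and leaving out nucleoplasm replicate 1 or 2 gave 0.140 and 0.138. With the replicate block the adjusted p was 0.00231, and quantile normalization gave a log2 fold change of -1.12 (adjusted p = 0.00610). On 5 libraries DESeq2 gave an adjusted p of 0.0435 and edgeR 0.0799.

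Sln codes for sarcolipin, the atrial relative of phospholamban. Its gene is the shortest of the 10, at 4.40 kb on the plus strand of chr9:53850164-53854560. The chromatin libraries had 69.1, 85.9 and 18.7 normalized counts and the nucleoplasm libraries 351, 376 and 109. The fractions did not overlap, and replicate 3 was far below the others in each. The ratio of nucleoplasm to chromatin means was 4.81, with a log2 fold change of -2.31 ± 0.73 (SE, adjusted p = 0.0428). With ERCC scaling it was -1.59 (adjusted p = 0.0847), no longer past the threshold. Without chromatin replicate 1, 2 or 3 the adjusted p was 0.0831, 0.0520 and 0.0887, and without nucleoplasm replicate 1 or 2 it was 0.127 and 0.130. The replicate block gave 0.000521.

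Cacna1c codes for the pore of the L-type channel, the route of calcium entry that triggers release. It is the longest of the 10 genes, 609 kb on the minus strand of chr6:118587240-119196418, with 3.48% annotated as exon. Its locus had 64170, 62166 and 41899 normalized counts in chromatin replicates 1, 2 and 3 and 11797, 11559 and 6222 in the nucleoplasm replicates. All chromatin libraries were above all nucleoplasm libraries, with replicate 3 again the lowest in both. Its log2 fold change was 2.54 ± 0.31 (SE, adjusted p = 0.000834), and it was 3.87 when the other same-strand loci inside the gene were added.

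Cacna2d1 codes for the alpha-2/delta-1 subunit, which brings the channel to the membrane. It spans 440 kb of the plus strand at chr5:15934691-16374511, with 2.82% in exons. Normalized counts were 26843, 23882 and 21686 in chromatin and 13977, 12238 and 11473 in nucleoplasm. The fractions were well apart, and replicate 3 was slightly below the others. The chromatin mean was 1.92 times the nucleoplasm mean, and the log2 fold change was 0.94 ± 0.12 (SE, adjusted p = 0.00122), or 1.68 with ERCC scaling and 0.57 with quantile normalization. Cacna1c and Cacna2d1 were thus both higher in chromatin, and whether their changes differ was not tested.

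Slc8a1 codes for the sodium-calcium exchanger NCX1, which removes calcium from the cell, and spans 365 kb of the minus strand at chr17:81373105-81738377. It had 235177, 216748 and 187511 normalized counts in chromatin and 50629, 45595 and 35551 in nucleoplasm. The lowest chromatin library stood far above the highest nucleoplasm library. The log2 fold change was 2.29 ± 0.18 (SE, adjusted p = 0.000157). Ryr2, Cacna1c, Slc8a1 and Cacna2d1 passed as higher under each of the 16 alternatives tried, with log2 fold changes of 2.53 to 3.56, 2.15 to 3.87, 2.02 to 3.02 and 0.57 to 1.68.

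**Figure D2:**
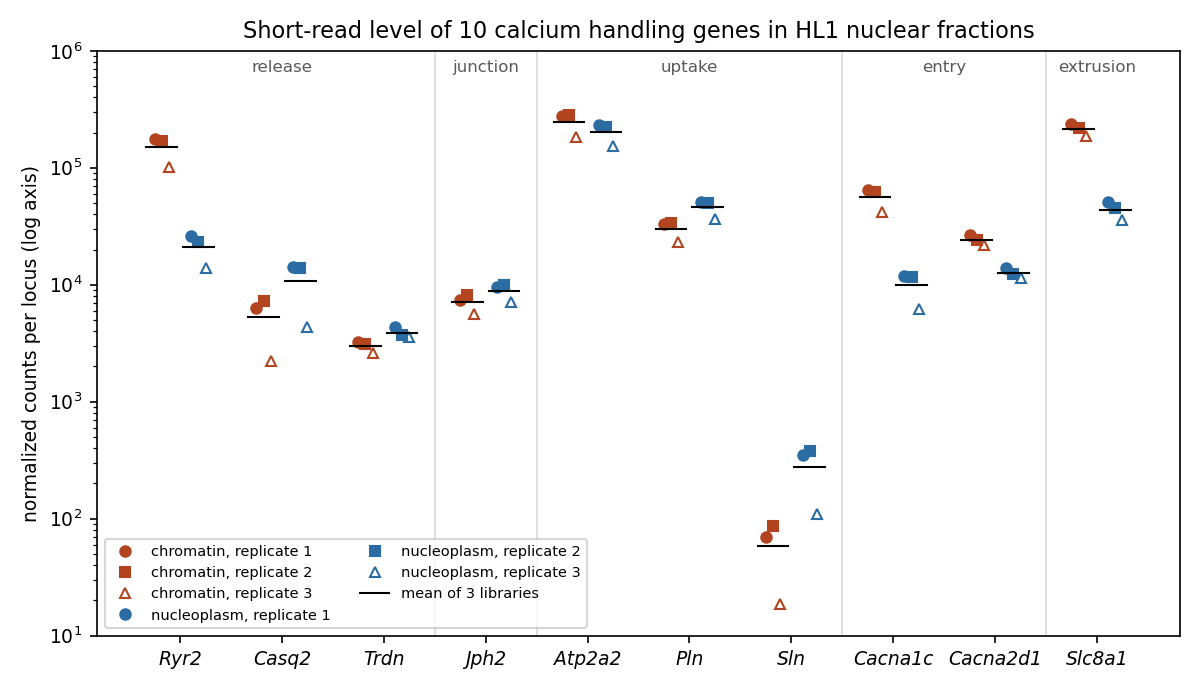
Normalized counts of each gene's locus in the 6 short-read libraries, on a log axis, grouped by role; each symbol is a library, open triangles are replicate 3, and black lines are means of 3 libraries. Chromatin and nucleoplasm are widely separated for Ryr2, Cacna1c and Slc8a1, and replicate 3 lies lowest in each fraction for all 10 genes.

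Levels were compared between genes only per kilobase of merged annotated exon. How far reads from introns count toward a locus was not tested. In Cacna1c and Jph2 separate intronic loci held more chromatin counts than the gene's own locus, so not all such reads were counted there. In chromatin Atp2a2 was first at 40620 ± 9322 normalized counts per kb (SD, n = 3), followed by Slc8a1 at 11333 ± 1278 and Pln at 10801 ± 2077, which did not differ beyond their spread. Ryr2 followed at 5193 ± 1446. Cacna1c at 2646 ± 581, Cacna2d1 at 1944 ± 208, Casq2 at 1923 ± 968 and Jph2 at 1663 ± 301 came next, and each of these overlapped the one after it. Trdn at 319 ± 33.5 and Sln at 44.0 ± 26.5 closed the order, each apart from its neighbours. In nucleoplasm Atp2a2 at 33484 ± 7360 and Pln at 16684 ± 2952 led without overlap. Casq2 at 3948 ± 2051, Slc8a1 at 2336 ± 408 and Jph2 at 2085 ± 367 overlapped each with the next. Cacna2d1 at 1012 ± 103 had all 3 libraries above those of Ryr2 at 733 ± 217, although the ranges of mean and SD met, and Ryr2 overlapped Cacna1c at 465 ± 149, which overlapped Trdn at 417 ± 44.8. Sln was last at 212 ± 112. Ryr2, Cacna1c and Slc8a1 thus stood 4th, 5th and 2nd in chromatin and 7th, 8th and 4th in nucleoplasm, while Casq2 and Jph2 stood 7th and 8th in chromatin and 3rd and 5th in nucleoplasm.

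Replicate 3 was the lowest library of its fraction for all 10 genes. In chromatin its value was 24.2% of the mean of replicates 1 and 2 for Sln, 33.2% for Casq2, 58.6% for Ryr2 and 85.5% for Cacna2d1. In nucleoplasm the same shares were 30.1%, 30.8%, 56.9% and 87.5%. Sln and Casq2 thus had the lowest shares of the 10 in both fractions. The median over the 10 genes was 68.2% in chromatin and 69.3% in nucleoplasm. Over the 9855 protein-coding loci with a mean of at least 100 normalized counts, the median was 92.6% in chromatin, with quartiles of 77.2% and 110.3%, and 100.4% in nucleoplasm, with quartiles of 87.0% and 115.1%. The summed cardiomyocyte markers were lower and the summed fibroblast markers higher in replicate 3, and their part in the result was not tested. The difference between fractions was as large in replicate 3 as in the others for Ryr2, at log2 ratios of 2.78, 2.85 and 2.86 in pairs 1, 2 and 3, and for Slc8a1, at 2.22, 2.25 and 2.40.

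Besides the matched locus, 4 of the 10 genes held other assembled loci on the same strand with at least 0.5 of their length within the gene. There were 4 in Cacna1c and 1 each in Ryr2, Slc8a1 and Jph2. In Slc8a1 a 59.4 kb locus at chr17:81510236-81569599, free of annotated exon, had 193750, 177622 and 144819 normalized counts in chromatin and 10488, 8309 and 10236 in nucleoplasm. That is 82.4%, 81.9% and 77.2% of the counts of the Slc8a1 locus in chromatin, but 20.7%, 18.2% and 28.8% in nucleoplasm. The fractions were further apart inside the intron than at the gene's own locus, with a ratio of means of 17.8. In Cacna1c a 78.0 kb locus at chr6:118889221-118967257, with 209 bases of exon, had 152801, 146421 and 86946 normalized counts in chromatin and 5961, 4974 and 4851 in nucleoplasm. These counts, not divided by length, were above those of the Cacna1c locus itself in every chromatin library and below them in every nucleoplasm library. Its neighbour at chr6:118782450-118888808 lies wholly in introns and had 90930, 86252 and 56286 in chromatin and 3745, 3174 and 3032 in nucleoplasm.

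The other loci inside Cacna1c were shorter. The locus of 13.3 kb at chr6:118967514-118980775 had means of 24470 ± 7077 in chromatin and 1182 ± 139 in nucleoplasm (SD, n = 3 each). That of 6.20 kb at chr6:119002000-119008196 had 8233 ± 2394 and 414 ± 65.8, and the long-read table lists a transcript of the long noncoding RNA Gm50599 with the same ends. In Ryr2 the extra locus at chr13:12075921-12124327 covers the start of the gene and 17382 bases outside it, with 547 bases of exon. It had 15203, 14646 and 8905 normalized counts in chromatin and 793, 665 and 649 in nucleoplasm. In Jph2 a 20.99 kb intronic locus at chr2:163346252-163367240 had 9593, 8950 and 10372 in chromatin and 547, 487 and 698 in nucleoplasm. Its chromatin counts, not divided by length, exceeded those of the Jph2 locus in all 3 libraries. It is the sole locus of the 7 with replicate 3 as the highest chromatin library.

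All 7 of these inner loci were more than 4-fold higher in chromatin, with log2 fold changes from 4.07 ± 0.15 (SE) in Jph2 to 4.57 ± 0.24 in the 78.0 kb locus of Cacna1c. Of the 1308 inner loci tested over all genes, 66.3% were more than 4-fold higher, so a high value is common in this class. With ERCC scaling the 7 values lay between 4.81 and 5.31, and with quantile normalization between 3.93 and 4.42. The log2 ratio of inner locus to gene locus was higher in chromatin than in nucleoplasm by 1.34 in Ryr2, by 1.74 to 2.03 in Cacna1c, by 1.86 in Slc8a1 and by 4.40 in Jph2. The libraries of the fractions did not overlap in this ratio for any of the 7, and the exact permutation p was 0.1 for each, two-sided, which is the smallest that 3 against 3 allows.

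**Figure D3:**
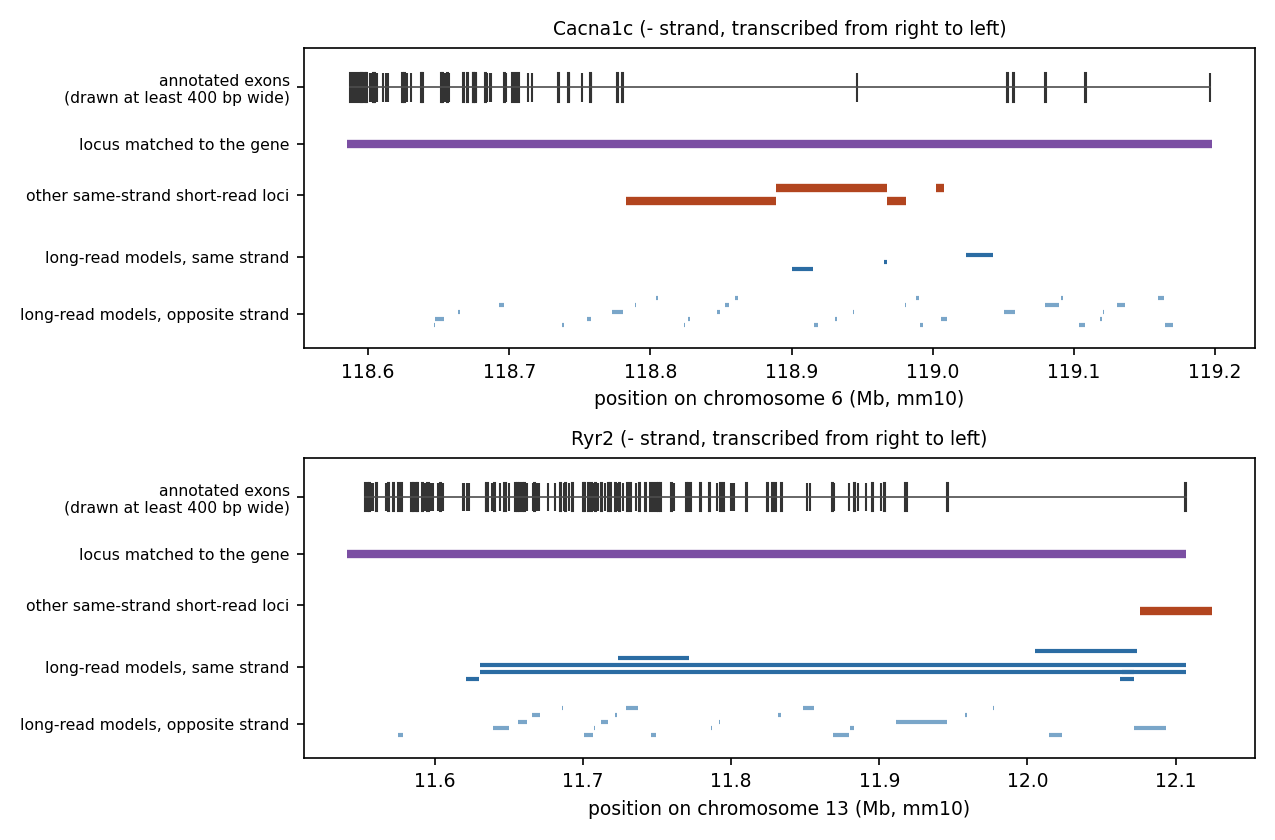
Maps of Cacna1c and Ryr2 along mm10 positions in Mb, with annotated exons, the short-read locus matched to the gene, other short-read loci on the same strand, and assembled long-read models inside the gene by strand. The 4 extra loci of Cacna1c lie between its exon clusters, and the extra locus of Ryr2 reaches past the annotated start.

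Gene length and the direction of the difference moved together. Over the 10 genes Spearman's rho of gene span with log2 fold change was 0.82, and over the 10957 protein-coding loci it was 0.44. Both are descriptions across genes, which are not independent replicates and share the same 6 libraries. Among protein-coding loci over 200 kb, 54.9% were higher and 7.29% lower, with a median log2 fold change of 0.84 and quartiles of 0.19 and 1.65. Ryr2, Cacna1c and Slc8a1 were above the upper of these quartiles, Cacna2d1 was within them, and Trdn, also over 200 kb long, was below the lower one. Among loci under 10 kb 10.2% were higher and 66.6% lower, with a median of -1.15 and quartiles of -1.82 and -0.25. Pln was within these quartiles and Sln below them.

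The long-read libraries give the chromatin fraction alone, as TPM, in which each library sums to 1000000, so the deposited values carry no read depth. With 2 libraries of a single fraction there is no test, and both values are given. Transcripts on the gene's strand and wholly inside it summed to 467 and 451 TPM over the 10 genes in replicates 1 and 2. Reference transcripts made 66.8 and 67.5 TPM of this and assembled models 400.4 and 384 TPM. Of 81 assembled models listed, 75 were above 0 in at least 1 library and 61 in both. Models that touch an annotated exon of the gene held 143 and 135 TPM, and those confined to introns held 257 and 249 TPM. By this rule more than 0.5 of the TPM belonged to models that touch no annotated exon of the host, but the rule leaves out reference transcripts that end past the gene. Transcripts sharing at least 1 base with a gene summed to 1001 and 758 TPM, of which reference transcripts made 403 and 322 TPM, so that the intronic models were the smaller part. On the opposite strand the transcripts inside the genes summed to 695 and 453 TPM. In both libraries they held more than those on the gene's strand for Ryr2, Cacna1c, Slc8a1, Trdn and Atp2a2. They did not for Casq2, Jph2, Cacna2d1, Pln and Sln. The deposited TPM come from alignments without strand, so in these values signal of a gene and of its opposite strand cannot be told apart.

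Ryr2 had 64.9 and 48.3 TPM in replicates 1 and 2, all of it in assembled models, because its detected reference transcripts end 3 bases outside the GENCODE gene. Counting transcripts that share at least 1 base with the gene gave 8.79 and 7.92 TPM of reference transcripts for Ryr2. Casq2 had 18.9 and 24.5 TPM in 8 intronic models, and 44.3 and 25.1 TPM in a reference transcript that passes the gene's end by 677 bases. The intronic model at chr3:102129240-102131469, with 7.40 and 4.33 TPM, covers the annotated intronic gene Gm43244 on the same strand. The assembled models of Casq2 thus held less than its full-length transcript. Jph2 had 48.4 and 21.5 TPM in 11 assembled models, none of which touched an exon. Its reference transcripts, which end 56 bases outside the gene, had 15.3 and 8.37 TPM. In Jph2 the intronic models held more TPM than the reference transcripts. The short-read locus in its intron held more counts than its gene locus in chromatin, but those counts are not divided by length. That intronic locus spans 20.99 kb, while the gene has 4.255 kb of annotated exon.

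Cacna2d1 held the most of the 10 in transcripts wholly inside the gene, with 251 and 293 TPM. By shared bases it had the same values, and Atp2a2 had 349.5 and 189 TPM, more in replicate 1 and less in replicate 2. The reference transcripts of Cacna2d1 had 42.7 and 45.1 TPM and its 44 assembled models 208 and 248 TPM. Cacna1c had 46.0 and 32.6 TPM inside, of which 43.4 and 27.2 TPM belonged to 3 models confined to introns. Its reference part of 2.68 and 5.36 TPM was almost wholly the transcript of Gm50599, which had 2.68 and 5.22 TPM. By shared bases the reference transcripts of Cacna1c itself had 7.12 and 8.15 TPM, nearly all in transcripts that reach 1078 bases past the gene. Slc8a1 had 21.1 and 31.4 TPM, with 4.36 and 17.0 TPM in reference transcripts, or 25.2 and 17.4 TPM by shared bases, and 13.5 and 14.4 TPM in a 14.0 kb intronic model at chr17:81555659-81569665. That model overlaps the end of the short-read locus described for the same intron.

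The SERCA pump, its regulators and Trdn had few or no transcripts above 0 on their own strand wholly inside their borders. Sln had 17.0 TPM in replicate 1 and was listed at 0 in replicate 2. Atp2a2 and Pln had no listed transcript inside on their own strand, and the 3 models inside Trdn were listed at 0. On the opposite strand 11 transcripts inside Trdn held 162 and 50.6 TPM. By shared bases Pln had 48.7 and 42.1 TPM in a reference transcript that passes the gene's end by 3272 bases. Trdn had 37.3 and 24.1 TPM by shared bases. Atp2a2 had 190.0 and 161 TPM in reference transcripts and 160 and 27.9 TPM in assembled models.

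The RefSeq promoter table (GRCm38.p6, 250 bases before to 50 after each start) held 10 windows for 7 of the 10 genes and none for Atp2a2, Sln and Trdn. They were searched on both strands for TATAAA, for CTA and TAG with any 4 bases between them as a MEF2 core, for AGATAA as a GATA core and for CATTCC as a TEAD core. TATAAA was found in 1 of the 10 windows and in 13.6% of all 32851, AGATAA in 2 and in 11.2%, the MEF2 core in 0 and in 3.69%, and CATTCC in 0 and in 14.7%. Printed here are the windows of Slc8a1 and Pln, the sole windows of the 10 with a match, and of Ryr2 for comparison. Ryr2 had the highest log2 fold change of the 10 by matched locus. With same-strand loci summed Cacna1c was higher, at 3.87 against 2.90. The assembled loci of Slc8a1, Pln and Ryr2 extend past the annotated start by 162, 337 and 259 bases, and those of Casq2, Cacna1c and Jph2 by 476, 1078 and 56. Capitals mark TATAAA and AGATAA on either strand, which do not overlap here, and a window without capitals holds none of the 4 motifs. The Ryr2 window, chr13:12106896-12107195 on the minus strand, lies inside both the Ryr2 locus and the extra locus at the start of the gene, and has 18 CpG and 65.3% G or C. The Slc8a1 window is chr17:81738338-81738637 on the minus strand, with 9 CpG, 50.7% G or C and AGATAA from 68 bases before the start. The Pln window is chr10:53337436-53337735 on the plus strand, with 1 CpG, 36.0% G or C, TATAAA from 219 bases before the start and AGATAA on the other strand from 183 bases before it.
Ryr2: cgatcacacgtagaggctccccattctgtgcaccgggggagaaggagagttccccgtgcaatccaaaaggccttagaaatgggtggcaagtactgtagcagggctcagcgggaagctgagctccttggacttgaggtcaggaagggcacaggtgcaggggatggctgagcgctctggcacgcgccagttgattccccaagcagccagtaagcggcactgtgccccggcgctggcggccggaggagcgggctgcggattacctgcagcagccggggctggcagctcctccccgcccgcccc
Slc8a1: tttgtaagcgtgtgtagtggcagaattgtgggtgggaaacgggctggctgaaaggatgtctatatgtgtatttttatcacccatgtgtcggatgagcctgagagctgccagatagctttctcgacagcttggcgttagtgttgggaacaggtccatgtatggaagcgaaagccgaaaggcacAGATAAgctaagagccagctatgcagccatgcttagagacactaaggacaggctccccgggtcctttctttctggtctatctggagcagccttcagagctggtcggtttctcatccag
Pln: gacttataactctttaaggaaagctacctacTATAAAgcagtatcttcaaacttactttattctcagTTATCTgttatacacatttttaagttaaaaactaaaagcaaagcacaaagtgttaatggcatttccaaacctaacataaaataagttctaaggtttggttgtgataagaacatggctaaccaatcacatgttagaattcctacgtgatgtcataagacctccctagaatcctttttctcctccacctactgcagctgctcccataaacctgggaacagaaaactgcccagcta

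A wider list of 56 calcium genes was matched by the same rule. An entry that met the rule was found for 54, all but Strit1 and Smdt1, and 53 were tested, since Ppp1r1a was at 0 in all 6 libraries. Higher in chromatin were 12 of 53, or 22.6%, and lower were 21, or 39.6%, near the 25.5% and 43.4% of all protein-coding loci. With ERCC scaling 16 were higher and 11 lower, beside 38.4% and 14.9% of the protein-coding loci, and with the replicate block 12 and 28, beside 29.2% and 49.7%. The same shares of protein-coding loci are the background for the counts by role that follow. The median log2 fold change was -0.49, or 0.17 with ERCC scaling.

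Among 11 genes of calcium release, 3 were higher and 4 lower, against 4 and 5 with the replicate block and 4 and 1 with ERCC scaling. Itpr2, an IP3 receptor, had means of 12748 and 2743 normalized counts in chromatin and nucleoplasm, and its log2 fold change was 2.18 ± 0.36 (SE, adjusted p = 0.00320). Tmem38a, the counter-ion channel TRIC-A of the reticulum, had 531 and 1444, with -1.48 ± 0.23 (adjusted p = 0.00265). Among 11 genes of entry, 3 were higher and 2 lower, against 3 and 4 with the replicate block and 3 and 0 with ERCC scaling, where limma also gave 0 lower at an unadjusted p under 0.05. Cacnb2, a beta subunit of the L-type channel, had 218333, 198449 and 124741 in chromatin and 14408, 12250 and 11145 in nucleoplasm. All its chromatin libraries were far above the nucleoplasm libraries, at a log2 value of 3.81 ± 0.24 (adjusted p = 6.86e-05). Another beta subunit gene, Cacnb3, had -0.96 ± 0.20 (adjusted p = 0.00870), which was -0.23 (adjusted p = 0.356) with ERCC scaling.

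Among 7 genes of uptake and extrusion limma called 0 higher, also at an unadjusted p under 0.05, and 2 lower, and edgeR and DESeq2 on 5 libraries gave 0 higher. With ERCC scaling 1 was higher, Slc8b1, a sodium-calcium exchanger of mitochondria named after its value was seen (0.72, adjusted p = 0.0135), and 1 was lower, and with the replicate block 0 were higher and 4 lower. The lower genes were Calr, the calcium-binding chaperone calreticulin, with -2.25 ± 0.11 (SE, adjusted p = 3.42e-05), and Atp2a3, the SERCA3 pump, with -1.39 ± 0.29 (adjusted p = 0.00867), or -0.65 (adjusted p = 0.0973) with ERCC scaling. Of 7 mitochondrial genes tested 4 were lower, against 6 with the replicate block and 3 with ERCC scaling. Vdac1, a channel of the outer membrane, had -1.77 ± 0.23 (adjusted p = 0.00127). Of 17 regulators tested 5 were higher and 9 lower, also with the replicate block, against 7 and 6 with ERCC scaling. The locus matched to Adrb1, the beta-1 adrenergic receptor, shared 0.502 of the joint span with the gene, just above the limit of 0.5. It had a mean of 1321 normalized counts in chromatin and 157 in nucleoplasm, with 3.06 ± 0.21 (adjusted p = 9.68e-05). S100a1, a calcium sensor that acts on SERCA2 and the ryanodine receptor, had 238 and 1519, with -2.67 ± 0.17 (adjusted p = 7.37e-05).

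Relatives of the 10 genes that serve mainly skeletal muscle or neurons were listed too. All 9 had an entry above 0, and 4 had a mean of at least 100 normalized counts. The most abundant was Cacna1s, the pore of the skeletal muscle L-type channel, with 1047, 1063 and 1662 in chromatin and 2034, 2064 and 2785 in nucleoplasm. Its replicate 3 was the highest of each fraction, unlike that of Cacna1c. It was the sole one of the 9 that limma called, at -0.89 ± 0.23 (SE, adjusted p = 0.0191), and under the authors' scaling 0 were called higher, with 1 higher at an unadjusted p under 0.05 and 0 by edgeR and DESeq2. With ERCC scaling 2 were higher and 0 lower. These were Casq1, a skeletal muscle calsequestrin, at 1.02 (adjusted p = 0.0184), and Atp2a1, the SERCA1 pump, at 2.99 (adjusted p = 0.0333), both named after their values were seen. Atp2a1, with means of 22.1 normalized counts in chromatin and 4.92 in nucleoplasm, was also called higher with a pseudocount of 10 (adjusted p = 0.0169) and without nucleoplasm replicate 2 or 3 (0.0439 and 0.0440). With ERCC scaling Cacna1s had -0.15 (adjusted p = 0.740) and with quantile normalization -0.63 (adjusted p = 0.0851). Without chromatin replicate 1 or 2 or nucleoplasm replicate 3 its adjusted p was 0.0745, 0.0683 and 0.0543.

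For each gene the protein-coding locus with the most similar pattern was taken as that with the smallest Euclidean distance over the 6 centred log2 values, among 9845 loci with a mean of at least 100 normalized counts. These were Nlrc3 for Ryr2 (distance 0.275), Abcc9 for Casq2 (0.159), Kdm6b for Trdn (0.0804) and Apba1 for Jph2 (0.0587). The nearest to Atp2a2 was Stat2 (0.0507), to Pln St3gal1 (0.0634) and to Sln Hrc (0.336). The nearest to Cacna1c was Riiad1 (0.338), to Cacna2d1 Meaf6 (0.0932) and to Slc8a1 Atxn7l1 (0.159). Hrc, the locus nearest to Sln, codes for a calcium-binding protein of the sarcoplasmic reticulum and is in the wider list. It had 76.2, 113 and 21.9 normalized counts in chromatin and 441, 397 and 109 in nucleoplasm. Since Hrc was chosen by its likeness to Sln over these 6 libraries, its low replicate 3 follows from the choice.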

How the data were processed

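The authors aligned short reads to mm10 with HISAT2 2.1.0, assembled loci with StringTie, and deposited stranded gene counts divided by DESeq2 size factors (unit: signal or coverage). Long reads were aligned with minimap2 without strand, assembled, and deposited by the authors as TPM. The members and all gene lists were chosen with earlier results of these data known. The fractions were tested in R 4.3.3 by limma 3.58.1, whose variance prior followed the mean level. Genes named were the 10 members, genes at the extremes of the role groups among those with an adjusted p under 0.05, the most abundant relative, 4 fractionation controls and the nearest loci. Every value was a whole multiple of its library's smallest step (100% within 0.001 of a whole number). The step of nucleoplasm replicate 1 was too close to 1 for its whole reads to be taken as certain, so edgeR 4.0.16 and DESeq2 1.42.0 were run on the other 5 libraries, alternatives chosen after seeing the data. The fits were tested on simulated data. Replicate numbers come from the titles. Deviations of same-numbered libraries from their fraction's mean correlated at 0.117, 0.105 and 0.249 across 23895 entries with a mean of at least 10, and at 0.0959, 0.0902 and 0.222 across all 35794. On the first of these they were read as paired, and blocked values are given where they change a call. Alternatives were 2 pseudocounts, a filter on the mean, ERCC and quantile scaling, the block, summed loci and each library left out.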

Additional observations from a re-analysis of the deposited data

How the results depend on the processing

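Over 16 alternatives for each of the 10 genes, 130 of 160 values kept their direction and their side of the threshold, 21 lost the call, 5 gained it and 4 changed sign. The count of genes higher in chromatin was 4 or 5 throughout, and that of the wider list lay between 10 and 16. With the authors' scaling 3 members and 21 genes of the wider list were lower. With ERCC scaling these counts were 0 and 11 (limma, 1 member lower at an unadjusted p under 0.05), and the log2 fold changes turned to 0.10 for Pln, 0.35 for Trdn and 0.41 for Jph2, while the median of protein-coding loci moved by 0.72 with the same scaling. Summing the same-strand loci of a gene turned Jph2 to 0.83. With the replicate block 5 members and 28 genes of the wider list were lower. Leaving out a library gave 0 to 3 lower members, and leaving out replicate 3 of both fractions, chosen after seeing the data, gave 5. Of the protein-coding loci 43.4% were lower with the authors' scaling, 14.9% with ERCC scaling and 49.7% with the replicate block. With 1 library left out 38.4% to 43.3% of them were lower, and without replicate 3 of both fractions 49.3%. On 5 libraries edgeR gave 1 lower member and DESeq2 gave 3, beside 40.8% and 43.8% of the protein-coding loci. The same count tests on all 6 libraries were planned and not run. Beyond the smaller number of libraries in some alternatives, the cause was not tested. The summed long-read TPM of 459 became 880 for transcripts sharing at least 1 base with a gene, 416 for those above 0 in both libraries and 1033 over both strands, and lay between 451 and 467 when a library was left out. Precision is limited by 3 libraries per fraction, and Sln has under 100 normalized counts in each chromatin library.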
